A study of Mus musculus with 2 samples.

Results

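10 genes that encode splicing regulators of neurons were followed in the cortex of adult mice: Rbfox1, Rbfox2, Rbfox3, Nova1, Nova2, Ptbp1, Ptbp2, Srrm4, Mbnl1 and Mbnl2. They were taken by symbol, and all 10 were found among the 43346 gene rows of the mm10 tables. The tissue came from C57BL/6J mice of 8 weeks, with male and female littermates pooled and no treatment or altered gene, and the labels call it both cortex and cortical plate. Polyadenylated RNA was sequenced with strand in 2 libraries, labelled as biological replicates 1 and 2, which form 1 group, so no condition could be contrasted. Pooling means that a library is a mixture of animals, and the labels do not say how many. In bulk tissue, fewer cells of a type and less RNA per cell cannot be told apart.

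Splicing regulators of this kind bind short motifs in the RNA precursor and, from their position next to an exon, favour or prevent its inclusion. Rbfox proteins bind GCAUG through one RNA recognition motif, Nova proteins bind clusters of YCAY through KH domains, Ptbp proteins bind pyrimidine-rich RNA and mostly repress exons, and Mbnl proteins bind YGC elements through zinc fingers. Srrm4 is a serine/arginine-rich protein that promotes the inclusion of neuronal microexons. Many of these genes are themselves alternatively spliced: an exon in or near a nuclear localisation signal changes where the protein resides, and a skipped exon that breaks the reading frame can send the RNA to decay. In development, neurons replace Ptbp1 with Ptbp2.

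Several results turn on short coding exons of the members, which are printed here from the transcripts of GENCODE release 21 on GRCm38, 5′ to 3′ in the sense of the gene. Capitals mark positions at which the paralogs shown together differ. The 93 nt exon of the Rbfox genes lies in the RNA recognition motif, at chr16:7292185-7292277 (plus strand) for Rbfox1, chr15:77105577-77105669 (minus) for Rbfox2 and chr11:118502842-118502934 (minus) for Rbfox3. Rbfox1 and Rbfox2 shared 86 of its 93 bases (92.5%), and Rbfox3 shared 69 (74.2%) with each.
Rbfox1, 93 nt: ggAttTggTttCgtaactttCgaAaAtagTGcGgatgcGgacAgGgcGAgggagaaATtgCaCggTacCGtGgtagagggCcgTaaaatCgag
Rbfox2, 93 nt: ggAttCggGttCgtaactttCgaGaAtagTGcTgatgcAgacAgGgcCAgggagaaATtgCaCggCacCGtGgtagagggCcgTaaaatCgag
Rbfox3, 93 nt: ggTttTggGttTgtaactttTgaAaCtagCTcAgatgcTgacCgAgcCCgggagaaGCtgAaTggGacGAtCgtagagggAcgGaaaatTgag

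The 40 nt and 43 nt exons follow one another near the 3′ end of the Rbfox coding sequence, and they are known as the neuronal and the muscle version of the same stretch of the protein. The 40 nt exon lies at chr16:7363865-7363904 (plus) in Rbfox1, chr15:77094451-77094490 (minus) in Rbfox2 and chr11:118496351-118496390 (minus) in Rbfox3. It was identical at 34 of 40 positions between Rbfox1 and Rbfox2 and between Rbfox1 and Rbfox3, and at 31 between Rbfox2 and Rbfox3. The 43 nt exon lies at chr16:7369801-7369843 in Rbfox1 and chr15:77091812-77091854 in Rbfox2, with 27 of 43 positions identical (62.8%).
Rbfox1, 40 nt: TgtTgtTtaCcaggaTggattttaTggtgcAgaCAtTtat
Rbfox2, 40 nt: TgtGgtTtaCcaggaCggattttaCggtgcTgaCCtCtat
Rbfox3, 40 nt: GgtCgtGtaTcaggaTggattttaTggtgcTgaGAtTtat
Rbfox1, 43 nt: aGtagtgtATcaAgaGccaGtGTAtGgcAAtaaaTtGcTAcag
Rbfox2, 43 nt: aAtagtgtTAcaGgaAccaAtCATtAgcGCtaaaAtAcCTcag

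For the Mbnl genes, the 54 nt exon (chr3:60614683-60614736 in Mbnl1, chr14:120395712-120395765 in Mbnl2) is the one known to carry part of a nuclear localisation signal, and the 36 nt exon (chr3:60621423-60621458 and chr14:120403336-120403371) lies downstream of it. All are on the plus strand. Mbnl1 has a second exon of 54 nt, and the one shown is that with fewest differences from Mbnl2. The paralogs shared 46 of 54 positions (85.2%) and 31 of 36 (86.1%).
Mbnl1, 54 nt: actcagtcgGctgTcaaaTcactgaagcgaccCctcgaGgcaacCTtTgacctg
Mbnl2, 54 nt: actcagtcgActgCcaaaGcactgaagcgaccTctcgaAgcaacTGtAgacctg
Mbnl1, 36 nt: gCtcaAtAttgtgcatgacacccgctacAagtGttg
Mbnl2, 36 nt: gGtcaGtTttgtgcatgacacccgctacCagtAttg

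For the Ptbp genes, the 34 nt exon (chr10:79862014-79862047, plus, in Ptbp1 and chr3:119724612-119724645, minus, in Ptbp2) is the one whose skipping breaks the reading frame, and 26 of 34 positions were identical (76.5%). The 78 nt exon of Ptbp1 (chr10:79860117-79860194, plus) encodes part of the linker between RNA recognition motifs and keeps the frame.
Ptbp1, 34 nt: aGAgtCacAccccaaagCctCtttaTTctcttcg
Ptbp2, 34 nt: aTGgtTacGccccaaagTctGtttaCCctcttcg
Ptbp1, 78 nt: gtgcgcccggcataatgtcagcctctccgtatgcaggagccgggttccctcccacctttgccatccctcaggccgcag

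Levels were read as TPM, the share of a transcript scaled to a fixed total, which divides by length and so lets genes be set side by side. By mean TPM no member lay below the median of protein-coding genes, which was 9.63 TPM over the 16065 with counts. The least abundant, Srrm4, lay above 50.1% of them and so at the median, with 8.89 TPM in replicate 2. With mitochondrially encoded genes and spike-ins left out of the total, all 10 levels were higher, with Rbfox1 at 135 TPM. In TPM the Rbfox genes were highest. In counts per total without division by length, Mbnl2 ranked above Rbfox3 (153 and 156 against 130 and 126). In mm9 RPKM it stood at 8.47 and 8.33 against 8.63 and 7.97 for Rbfox3, so their order differed between the columns. Rbfox1 (chr16:5885355-7411526, plus) stood at 85.5 TPM in replicate 1 and 80.1 in replicate 2, or 82.8 ± 3.86 (SD, n = 2). Rbfox2 (chr15:77078990-77307004, minus) stood at 73.1 and 61.8, or 67.4 ± 7.96. Rbfox3 (chr11:118489762-118911597, minus), whose protein is the neuronal nuclear antigen NeuN, stood at 64.0 and 57.9, or 60.9 ± 4.33. Every Rbfox value in TPM exceeded every value of the other 7 members. The order within the family was the same in both libraries, but the lower Rbfox2 value lay below the higher Rbfox3 value, so their ranges over the libraries overlapped.

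Mbnl2 (chr14:120275669-120431697, plus) followed at 46.3 and 43.2 TPM, or 44.8 ± 2.14, above Mbnl1 (chr3:60472830-60629750, plus) at 25.8 and 24.2, or 25.0 ± 1.09. The Ptbp genes lay between them and overlapped. Ptbp2 (chr3:119718742-119784466, minus), the form typical of neurons, had 29.9 and 26.4 TPM, or 28.2 ± 2.45. Ptbp1 (chr10:79854427-79864771, plus), the form typical of dividing cells, had 29.2 and 26.8, or 28.0 ± 1.69. The span of Ptbp1 overlaps Plppr3 on the opposite strand, which had 44.0 and 39.5 TPM.

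In gene TPM the Nova genes and Srrm4 were lowest, but not on every scale. In counts per total without division by length Ptbp1 was lowest, at 33.8 and 36.2. Srrm4 had 51.4 and 47.9 there, Nova1 76.3 and 67.7, and Nova2 76.3 and 78.6. In TPM of protein-coding transcripts Ptbp1 (7.78) lay below Nova1 (13.3) and Nova2 (11.1), and Srrm4 was lowest (3.33). In mm9 RPKM Nova2 (2.23 and 2.26) and Mbnl1 (2.27 and 2.13) changed order between the columns. Nova1 (chr12:46694517-46818929, minus) had 14.7 and 11.9 TPM, or 13.3 ± 1.94, and Nova2 (chr7:18925888-18965319, plus) had 12.6 and 12.1, or 12.4 ± 0.346. Their order was opposite in the 2 libraries. Srrm4 (chr5:116439275-116591817, minus) had 10.4 and 8.89, or 9.65 ± 1.07, against 43.2 ± 4.51 for its paralog Srrm3.

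**Figure D1:**
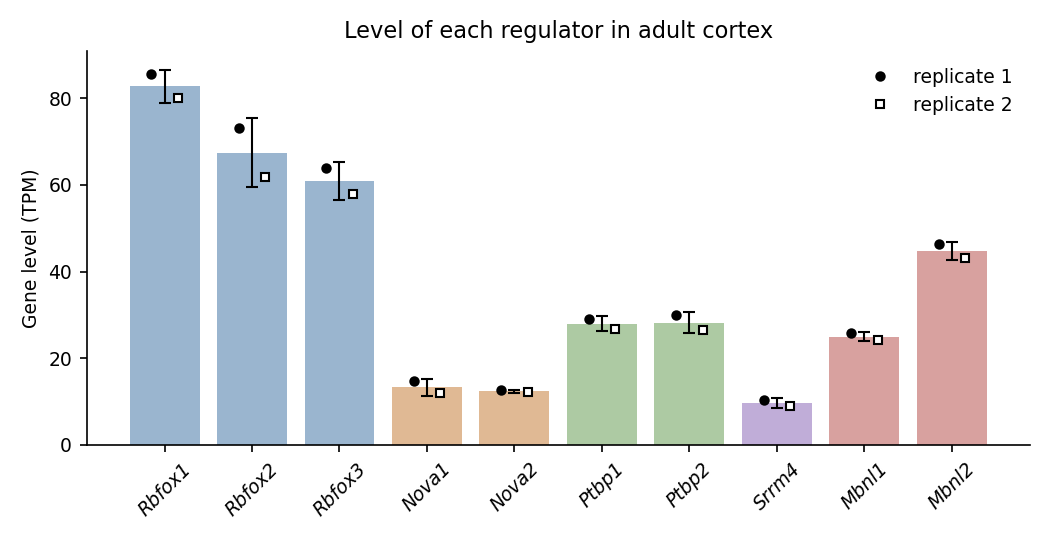
Level of each regulator (vertical axis, TPM) in the 2 libraries, with bars for the mean and error bars for the SD (n = 2), coloured by family. In TPM the 3 Rbfox genes lie above all others, and Ptbp1 and Ptbp2 are level at 28.0 and 28.2 TPM.

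Ratios between paralogs were taken within each library, and 7 pairs were compared without a test. Mbnl2 exceeded Mbnl1 by a log2 ratio of 0.84 in both libraries (0.84 ± 0.01, SD, n = 2), or 1.79-fold. Rbfox1 exceeded Rbfox2 by 0.23 and 0.37 (0.30 ± 0.10), and Rbfox3 lay below Rbfox1, at −0.42 and −0.47 (−0.44 ± 0.04). These differences were larger than the spread between the libraries. Rbfox3 lay 0.14 ± 0.07 below Rbfox2 on the log2 scale, with ratios of −0.19 and −0.10. Srrm4 over Srrm3 came to −2.16 ± 0.01, so that Srrm3 was 4.48-fold higher. Nova2 over Nova1 came to −0.22 and 0.03 (−0.10 ± 0.17), and Ptbp2 over Ptbp1 to 0.04 and −0.02 (0.01 ± 0.04). Neither of these pairs could be ordered on this scale.

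On other scales some pairs moved more than between libraries. Ptbp2 over Ptbp1 was 1.85 ± 0.13 on the log2 scale (3.61-fold) when only transcripts annotated as protein-coding were summed, at 28.2 ± 2.45 TPM for Ptbp2 and 7.78 ± 0.0354 for Ptbp1. It was 1.12 from junction reads, whose median over the introns of the leading coding transcript was 507.0 for Ptbp2 and 232.5 for Ptbp1 (sum of both columns of the mm9 junction table). Some introns of these transcripts were hardly used: the least had 8 reads in Ptbp1, 2 in Rbfox3 and 0 in Rbfox1, Rbfox2 and Nova2. Other transcripts were not tried on the junction scale. On the coding scale only Ptbp1 and Mbnl1 could lose TPM against their paralogs, since every transcript listed for Ptbp2 and Mbnl2 is coding. Mbnl2 over Mbnl1 kept its sign on all 5 scales, from 0.84 to 1.93, and Srrm4 over Srrm3 from −3.19 to −0.56. Rbfox1 over Rbfox2 changed sign: it was −0.97 without division by length and −0.27 in the mm9 gene table, against 0.30 in gene TPM and 0.42 in junction reads. Rbfox3 lay below Rbfox2 and below Rbfox1 on all 5.

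**Figure D2:**
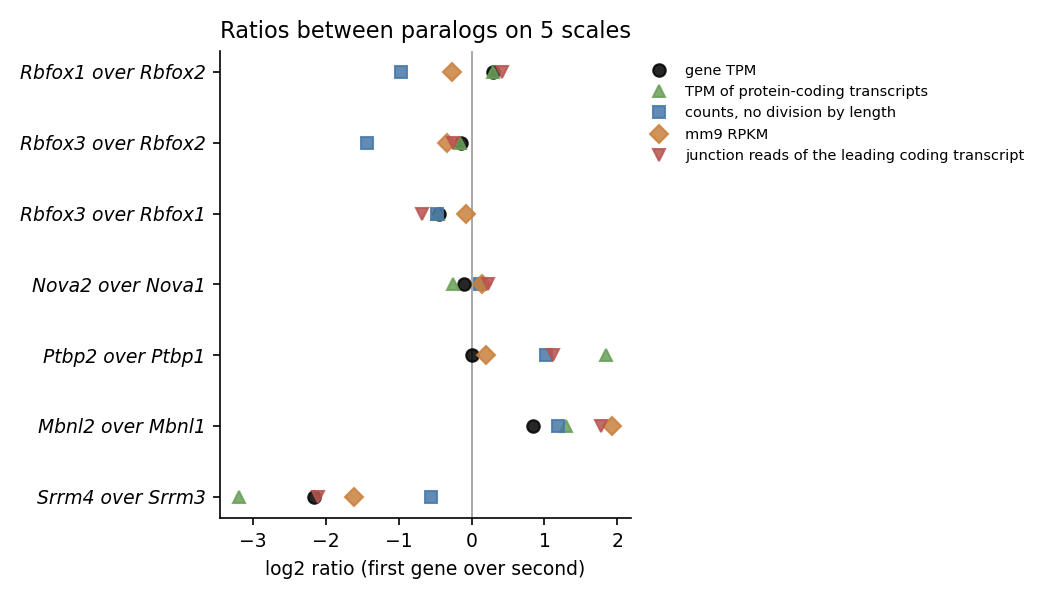
Log2 ratio of the first gene over the second (horizontal axis) for 7 pairs of paralogs on 5 scales, each a marker: gene TPM, TPM of protein-coding transcripts, counts without division by length, mm9 RPKM and junction reads. Ptbp2 over Ptbp1 runs from 0.01 to 1.85, and Rbfox1 over Rbfox2 lies on both sides of 0. The junction-read marker of Nova2 over Nova1 rests on a Nova2 model that differs from the deposited transcript.

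Transcript shares were given by the authors as percent of the gene and were summed by annotated type. What types a gene can show depends on its listed transcripts: 16 for Ptbp1 and 25 for Mbnl1, but 1 for Ptbp2 and 2 for Mbnl2. Differences between paralogs in type therefore depend on the annotation. In Ptbp1, transcripts annotated as retained intron held 70.9% and 64.9% of gene TPM in replicates 1 and 2 (67.9% ± 4.19), those of nonsense-mediated decay 4.22% ± 2.38, and protein-coding ones 27.9% ± 1.81. The leading transcript was Ptbp1-214, a retained-intron model of 744 nt, with 31.3% and 25.2% (28.3% ± 4.31). It was followed by the retained-intron models Ptbp1-213 (15.9% ± 1.49), Ptbp1-204 (11.1% ± 0.742) and Ptbp1-205 (10.6% ± 1.79). The largest coding transcripts, Ptbp1-202 without the 78 nt exon and Ptbp1-216 with it, held 11.2% ± 1.70 and 10.6% ± 0.332. Over the 7872 protein-coding genes with at least 10 TPM, the median coding share was 96.3%, and 3.24% of them had a lower share than Ptbp1. By expected counts, which are not divided by length, the noncoding share of Ptbp1 was 52.0% in place of 72.1%, and Ptbp1-214 held 9.79%. Ptbp2 had 1 transcript in the annotation, so no share could be measured.

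Srrm4 was also led by a retained-intron model, Srrm4-203, which has 5 exons, the long last one among them, at 56.2% and 52.7% (54.4% ± 2.50). The coding transcript Srrm4-201, with 13 exons, had 29.5% ± 2.67, and a transcript absent from release 21 had 10.9% ± 1.10. Coding transcripts summed to 3.33 ± 0.0283 TPM for Srrm4 and to 30.5 ± 2.43 TPM for Srrm3. Mbnl1 had 72.6% ± 2.03 in coding transcripts and 27.4% ± 2.03 in noncoding ones, or 13.0% by expected counts. Its leading transcript Mbnl1-201, with the 36 nt exon, had 29.0% ± 0.431 (46.6% of expected counts), Mbnl1-214, with a 54 nt exon, had 20.6% ± 0.368, and the processed transcript Mbnl1-208 had 14.1% ± 1.25. The remaining members were at or close to 100% coding apart from Nova2, of which 10.5% ± 3.27 lay in a transcript absent from release 21. For Rbfox1, Rbfox2, Nova1, Ptbp2 and Mbnl2 every listed transcript is coding, so 100% was fixed by the annotation. Nova1 had 1 transcript, and Nova2-201 led its gene with 89.5% ± 3.29.

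**Figure D3:**
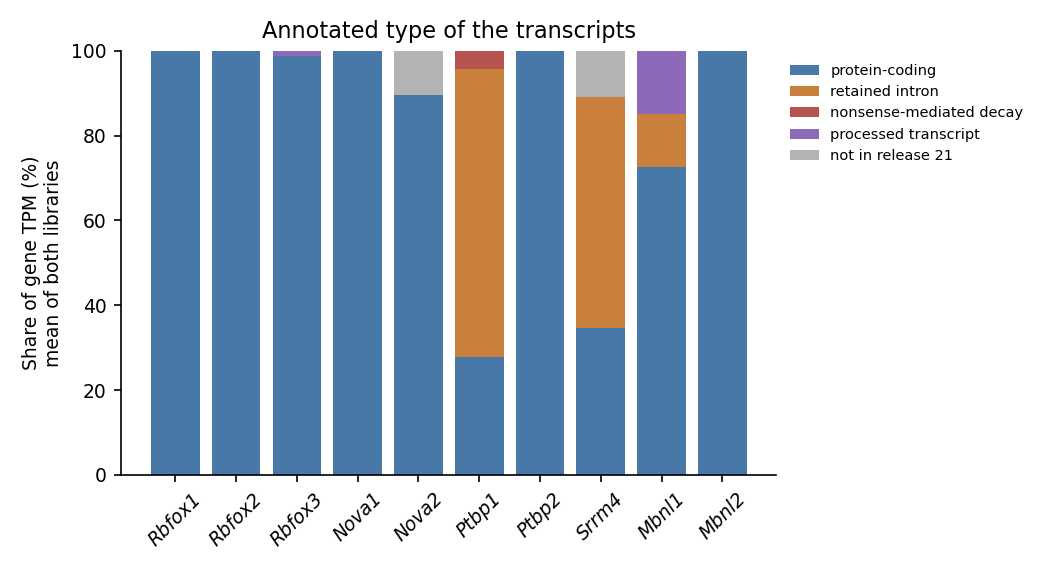
Share of gene TPM (vertical axis, percent, mean of both libraries) by annotated transcript type for each regulator. Ptbp1 and Srrm4 are mostly retained-intron models, at 67.9% and 54.4%, and Mbnl1 holds 27.4% in noncoding types.

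The remaining shares concern coding transcripts. Rbfox1 was split between Rbfox1-201 (58.5% ± 3.26) and Rbfox1-202 (41.5% ± 3.26). Rbfox2 was led by Rbfox2-203, with the 40 nt exon, at 65.7% ± 1.06, then Rbfox2-201, with neither the 40 nt nor the 43 nt exon, at 19.2% ± 1.96, and Rbfox2-202, with the 43 nt exon, at 14.8% ± 2.76. Rbfox3 was led by Rbfox3-203 at 40.1% ± 0.976, Rbfox3-205 at 36.2% ± 0.735 and Rbfox3-201 at 15.3% ± 0.516. Mbnl2-202, without the 54 nt exon, had 56.1% ± 0.304, and Mbnl2-201, with it, had 43.9% ± 0.304. The SD over the libraries was at most 3.26 percentage points in these shares.

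Junction reads give a readout of exons that does not depend on assigning reads to transcripts. They came from the mm9 junction table, which has a first and a second column that are not assigned to the replicates. Inclusion sets the mean of the reads at both ends of an exon against the reads that skip it, and 95% Wilson intervals cover counting error only. Of 112 internal exons that Ensembl 65 annotates in the members, 97 had at least 20 informative reads in each column. Of those, 12 (12.4%) had inclusion of 5% to 95% in the sum of both columns, against 4.51% of all 111485 internal exons measured. Exon counts differed between members: none of the 14 measured in Rbfox3, of 3 in Nova1, 2 in Nova2 or 9 in Srrm4 was in that range. Forms of an exon that differ at 1 splice site were counted as separate exons, and this measure does not see a choice between them. The 40 nt and 181 nt forms of an Rbfox3 exon, given below, each scored 100%. With any junction counted at the exon ends, the 43 nt exons of Rbfox1 and Rbfox2 left the range (0.434% and 2.25%), and the 95 nt exon of Mbnl1 (86.7%) and the 93 nt exon of Rbfox2 that had 96.7% (93.6%) entered it. Of the 12, 7 had a length that was not a multiple of 3, among them the noncoding 1049 nt exon of Mbnl1. Of the 85 measured exons outside the range, 44 had a length that was a multiple of 3. A difference between these shares was not tested.

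In Rbfox1, the 40 nt exon was included at 97.5% in the first column and 97.1% in the second, with 919 and 1012 reads at one end and 921 and 974 at the other, and 24 and 30 reads that skipped both alternatives. The 43 nt exon had 3 and 1 reads at one end and 4 and 5 at the other, so its inclusion against direct skipping was 12.7% and 9.09% (interval of the sum 4.66% to 20.1%). When junctions of the 40 nt exon were counted as competing, it fell to 0.332% in the sum. The neuronal version thus led at the junctions by a wide margin. By transcript estimates, Rbfox1-201 held 58.5% of the gene, and Rbfox1-202, with the 40 nt exon, 41.5%. The deposited length of Rbfox1-201 equals that of its Ensembl 65 model, which has the 43 nt exon, and not that of release 21, where the 43 nt exon lies in Rbfox1-203 and Rbfox1-206. By expected counts the share of Rbfox1-201 was 84.7%. Rbfox1-201 carries a last exon of 2789 nt, and Rbfox1-202 one of 123 nt. If the Ensembl 65 model holds for the deposited transcript, the authors' shares and the junction reads put different exons first in this gene.

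The 53 nt exon of Rbfox1 (mm9 chr16:7392081-7392133), downstream of these, was included at 50.8% (48.1% to 53.5%) and 47.6% (44.9% to 50.2%). It is in neither listed transcript, and its length changes the reading frame. The 81 nt exon was included at 91.2% and 90.3%. A 54 nt exon lay just outside the range, at 94.5% and 95.5% in the columns, while the 34 nt exon of Ptbp2 lay just inside, at 94.8%.

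Rbfox2 resembled Rbfox1 at the same position, with a lower level of the 40 nt exon: 84.7% (81.4% to 87.9%) and 84.6% (81.5% to 87.7%). The intervals did not overlap those of Rbfox1. Its 43 nt exon had 9.55% and 9.71% against direct skipping, from 9 and 14 reads at one end and 6 and 3 at the other, and 1.63% with competing junctions counted. Transcripts with the 40 nt exon held 66.0% of Rbfox2, and the transcript with the 43 nt exon 14.8%. The 51 nt exon of Rbfox2, next to alternative first exons, was included at 87.2% and 83.2%, from 525 and 445 reads at its left end and 89 and 71 at its right end. An unannotated junction at the right end, with 385 and 395 reads, was left out of these values. With any junction counted the sum was 86.2%. With spanning junctions as skipping it was 78.4%, outside the main interval of 82.4% to 87.8%.

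In Rbfox3, the exon that corresponds to the 40 nt exon exists in a form of 40 nt and a form of 181 nt with the same downstream end. The 40 nt form took 225 of 410 and 247 of 430 reads at the upstream end, or 54.9% and 57.4% (52.8% to 59.5% in the sum). Transcripts with the 181 nt form held 51.7% of gene TPM in both libraries. Another 40 nt exon of Rbfox3, between the 105 nt and 255 nt exons, was included at 98.7% in the sum, with 10 skipping reads. Rbfox3-205, which lacks that exon, held 36.2% of the gene, so shares and junction reads differed there. Rbfox3-203 led the gene at 40.1%, but its least used intron had 2 junction reads in the sum. The 93 nt exon in the recognition motif, whose skipping leaves the protein with an incomplete motif, was included at 99.9% in Rbfox1 and 96.7% (95.2% to 97.7%) in Rbfox2, with 27 skipping reads in Rbfox2 and 1 in Rbfox1.

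**Figure D4:**
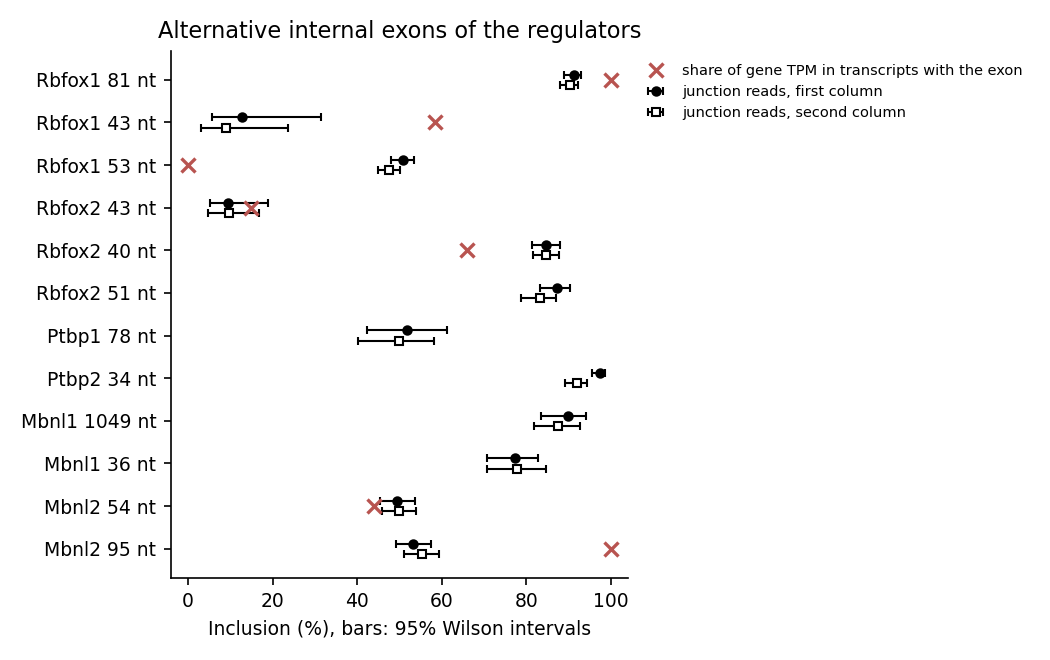
Inclusion (horizontal axis, percent) of the 12 alternative internal exons of the regulators in the first and second column of the junction table, with 95% Wilson intervals. Crosses give the share of gene TPM in transcripts that hold the exon, for Rbfox1, Rbfox2 and Mbnl2. The cross of the Rbfox1 43 nt exon, at 58.5%, lies far from its inclusion of 10.7%.

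Ptbp1 had its 78 nt exon at intermediate inclusion, 51.9% (42.4% to 61.3%) and 49.8% (40.3% to 58.1%), from 50 and 59 skipping reads. Its 34 nt exon was included at 96.0% and 94.9%. In Ptbp2 the 34 nt exon was included at 97.4% (95.4% to 98.5%) in the first column and 92.0% (89.1% to 94.3%) in the second, from 12 and 34 skipping reads. The columns did not overlap for this exon. In both genes most junction reads at this exon came from the form that keeps the reading frame. Nova1 included its 72 nt exon at 96.6% and 97.0%.

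Mbnl1 and Mbnl2 had 2 such exons each, of 9 and 7 measured. In Mbnl2, the 54 nt exon was included at 49.5% (45.3% to 53.6%) and 49.8% (45.8% to 53.9%), beside 43.9% of gene TPM in the transcript that holds it. The 95 nt exon of Mbnl2 had 53.3% and 55.3%, from 101 and 134 reads at one end and 521 and 474 at the other. Junctions of a 36 nt exon that Ensembl 65 does not list carried 222 and 257 further reads into the poorer end, and with any junction counted the value was 61.1%. Both deposited Mbnl2 transcripts contain the 95 nt exon. In Mbnl1, the 36 nt exon was included at 77.3% (70.7% to 82.8%) and 77.8% (70.6% to 84.7%), and the noncoding 1049 nt exon at 89.8% and 87.5%.

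Values are given for 3 exons in other genes that these proteins are known to control. The 18 nt N1 exon of Src, which Ptbp proteins repress, was included at 80.0% (76.3% to 83.5%) in the first column and 70.4% (66.0% to 74.5%) in the second, and the columns did not overlap. Of exons known as Nova targets, the 24 nt exon of Agrn had 62.0% and 64.5%, and the 33 nt exon of Agrn had 48.0% and 45.8%. The 33 nt Agrn value was 31.9% with any junction counted.

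The 2 libraries were compared gene by gene by an exact binomial test on rounded expected counts, scaled by TMM, over 19829 genes, with Benjamini-Hochberg adjustment. The p-values compare these libraries and not conditions, and they count only sampling noise. The labels call the libraries biological replicates of pooled littermates and do not say whether the pools shared animals. Of the 10 members, 5 passed a threshold of 0.05, against 28.7% of all genes and 47.7% of the 5278 genes with counts in the members' range, so the share was near that background. Rbfox2 had 31925 and 29559 counts and was lower in replicate 2 by 0.08 on the log2 scale (1.06-fold, adjusted p = 2.46e-11 by the exact test). Nova1 had 6743 and 6005 and fell by 0.14 (1.10-fold, exact adjusted p = 7.16e-07). Ptbp1, Nova2 and Mbnl2 were higher in replicate 2, by 0.13, 0.08 and 0.06 (exact adjusted p of 0.00192, 0.0101 and 0.00200). Their plain TPM ratios had the opposite sign, at −0.12, −0.06 and −0.10, on a scale that lowers the median of all genes by 0.16. With plain totals in place of TMM, Nova2 and Mbnl2 did not pass. All 5 called differences were at most 1.10-fold. Rbfox1, Rbfox3, Ptbp2, Srrm4 and Mbnl1 did not pass, with ratios from −0.07 to 0.06. Under edgeR's exact test with the common biological coefficient of variation of 0.0905 taken from both libraries, none of the 10 passed, and none had an unadjusted p under 0.05.

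**Figure D5:**
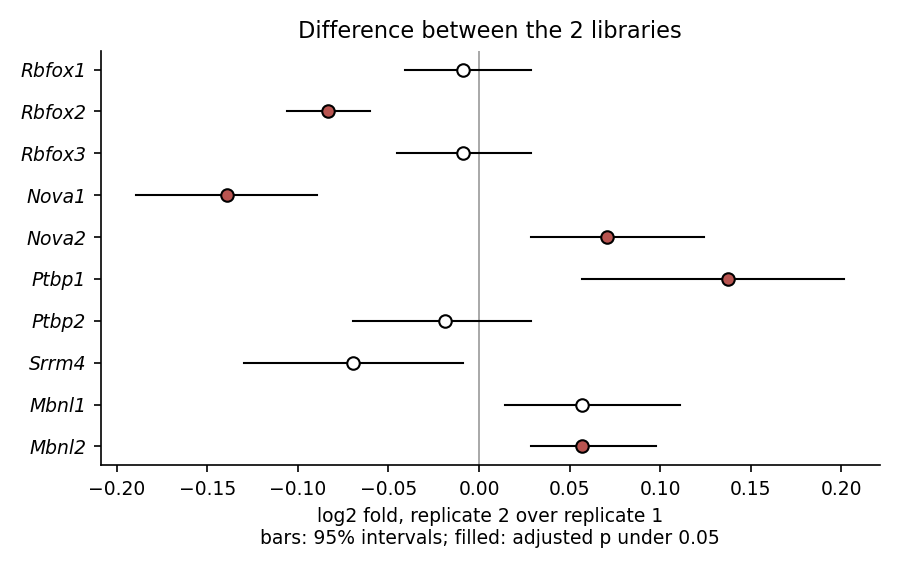
Log2 fold of replicate 2 over replicate 1 (horizontal axis) with 95% Clopper-Pearson intervals for the 10 regulators, filled where the adjusted p was under 0.05. All points lie between −0.14 and 0.13.

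Markers of some other regions and cell types differed between the libraries in the same test, in which 28.7% of all genes passed. All 5 striatal markers were higher in replicate 2 (49.1 and 190 summed TPM), all 3 markers of the dentate gyrus were lower (12.1 and 4.12), and all 5 oligodendrocyte markers were higher (3274 and 4009). Of 4 pan-neuronal markers, 2 were higher and 2 lower, with a median log2 ratio of 0.01 (2849 and 2565 summed TPM). Of 4 astrocyte markers, 2 were higher and 1 lower, with a median of 0.04. Of 3 microglial markers, 2 were lower, and of 3 endothelial markers 0 passed. Muscle markers summed to 19.0 and 12.5 TPM, of which Acta1 made up most, and markers of newborn neurons and progenitors to 13.6 and 12.1. The part of the marker differences in the values of the members was not tested.

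The other regulators and partners, 22 genes in all, were compared in the same test, with log2 ratios from −0.44 (Esrp1) to 0.58 (Esrp2), both from few counts: 1 passed as higher (Qk, 0.15), 5 as lower (Khdrbs3, at −0.19, Hnrnpul2, Srrm3, Hnrnpm and Matr3) and 16 did not pass, with a median of −0.01 against 0.00 over all genes tested. The most abundant were the helicase gene Ddx5, at 214 ± 17.4 TPM, Matr3, whose protein binds Ptbp1, at 139 ± 14.7, and Hnrnph1 at 138 ± 20.8. The least abundant by mean TPM was the epithelial regulator Esrp2, at 0.03 and 0.07, next to Esrp1 at 0.06 and 0.05, and these 2 could not be ordered. Rest, the repressor whose transcript Srrm4 splices in neurons, stood at 1.30 ± 0.0424.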

How the data were processed

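Per the labels, the 2 libraries are replicates of 1 group. Per the file headers, the authors deposited expected counts, TPM and IsoPct (percent of gene) for each library, on mm10 with GENCODE release 4. The deposited signal columns hold credible bounds of TPM, with no level given in the sources used here. The authors also deposited RPKM and counts of junction reads on mm9 with Ensembl 65, in columns that were not assigned to replicates. The aligner and quantifier are not given in the sources used here. No deposited column was left unmapped (0).

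Gene counts came to 88327121 and 88643335. Expected counts were rounded, scaled by TMM (edgeR 4.0.16; R 4.3.3) and compared by an exact two-sided binomial test for genes with at least 10 counts, with Benjamini-Hochberg adjustment. Log2 ratios added 0.5 counts. The quasi-likelihood test could not be fitted to 1 group. Alternatives used edgeR's exact test, DESeq2 1.42.0 size factors, plain totals, and minimums of 1 and 50 counts. Transcript types came from GENCODE release 21, and structures from a model of equal length in that release or in Ensembl 65. mm9 exons were matched to GRCm38 by transcript, length and order, without conversion. Junctions with the A flag set were taken as annotated, though the meaning of the flag is not stated. Reads carry no molecular identifiers, so intervals cover counting error only. The scripts were tested on simulated data. Other steps used Python 3.11.15, pandas 2.3.3 and scipy 1.17.1.

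The members and lists were chosen with earlier results of these data known. All members were named. Of each list, the rule named the 3 most abundant genes and the least abundant, and those past the threshold with a 1.5-fold difference. Transcripts were named at 10% of the gene or more, and exons at 5% to 95% inclusion. The other exons, genes and markers named were chosen after their values were seen. 1 listed target exon is not reported here.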

Additional observations from a re-analysis of the deposited data

Results flagged for a closer look

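Outside the annotated exons, 6 exons were bounded by a pair of unannotated junctions with at least 10 reads in each column of the junction table. No test was run on them, and no control samples exist. Their inclusion was set only against reads that join the same pair of flanking exon ends directly. The strongest was the 36 nt exon of Mbnl2 (mm9 chr14:120802558-120802593), with 1090 junction reads at its ends and 69.9% inclusion (66.6% to 73.0%) on that measure. A further 518 reads that skip it together with the 95 nt exon were not counted, so its inclusion over all Mbnl2 RNA would be lower. Release 21 holds 1 exon of that length in Mbnl2. An exon of 32 nt in Rbfox2 had 552 reads and 25.7% inclusion (23.2% to 28.4%), and release 21 has no exon of that length there. For it, 150 reads that skip it together with the 40 nt exon were not counted. The 54 nt exon of Mbnl1 had 188 reads and 29.5% (24.7% to 34.7%), and release 21 holds 2 exons of that length in Mbnl1. Exons of 102 nt in Nova1, 56 nt in Ptbp1 and 111 nt in Mbnl1 had 126, 120 and 103 reads, at 15.8%, 40.3% and 24.1% inclusion. Release 21 holds 1 exon of 111 nt in Mbnl1, and no exon of 102 nt in Nova1 or of 56 nt in Ptbp1. The Ptbp1 value covers only RNA with the 78 nt exon, since 109 reads that skip both exons were not counted. The ends of the Ptbp1 exon were uneven, at 40 and 80 reads.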

How the results depend on the processing

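Leaving out either replicate moved no level, ratio or share of a leading transcript beyond 1 SD, which 2 libraries cannot do by construction. Ratios without replicate 1 or 2 ran from 0.23 to 0.37 for Rbfox1 over Rbfox2, −0.19 to −0.10 for Rbfox3 over Rbfox2, −0.47 to −0.42 for Rbfox3 over Rbfox1, −0.22 to 0.03 for Nova2 over Nova1, −0.02 to 0.04 for Ptbp2 over Ptbp1, 0.84 for Mbnl2 over Mbnl1 and −2.17 to −2.16 for Srrm4 over Srrm3.

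TPM of nuclear genes only moved all 10 levels beyond 1 SD, and posterior mean TPM moved none. Ranks kept their place for 3 members in mm9 RPKM and for 0 in counts without division by length. Scale moved the ratios more, and the cause was not tested. In the order Rbfox1/Rbfox2, Rbfox3/Rbfox2, Nova2/Nova1, Ptbp2/Ptbp1, Mbnl2/Mbnl1 and Srrm4/Srrm3, log2 ratios were −0.97, −1.44, 0.11, 1.02, 1.19 and −0.56 without division by length, −0.27, −0.34, 0.14, 0.20, 1.93 and −1.61 in mm9 RPKM, and 0.42, −0.26, 0.23, 1.12, 1.78 and −2.10 in junction reads. Rbfox3/Rbfox1 was −0.08 in mm9 RPKM and −0.68 in junction reads. The Nova2/Nova1 value in junction reads rests on a Nova2 model with 4 introns, where the deposited Nova2-201 has 4 exons. On coding transcripts Ptbp2/Ptbp1 was 1.85, Mbnl2/Mbnl1 1.30 and Srrm4/Srrm3 −3.19. The coding-transcript and junction-read scales, and the count of spanning junctions as skipping, were chosen after seeing the data. By expected counts the noncoding share was 52.0% in Ptbp1, 13.0% in Mbnl1 and 0.0804% in Rbfox3.

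The number of members past the threshold between libraries was 5 under plain totals, DESeq2 size factors and both count minimums, and 0 under edgeR's exact test. With plain totals Nova2 and Mbnl2 no longer passed and Rbfox1 and Srrm4 did. The TPM ratio, which lowers the median of all genes by 0.16, turned the direction of Nova2 (−0.06), Ptbp1 (−0.12) and Mbnl2 (−0.10). The count of alternative exons was 11 to 13 under all 6 alternatives. Its members changed: with any or with spanning junctions the 43 nt exons of Rbfox1 and Rbfox2 left and the Mbnl1 95 nt (86.7% and 86.3%) and Rbfox2 93 nt (93.6% in both) exons entered, and with spanning junctions also the Rbfox1 54 nt exon (94.7%). In the first column alone the Ptbp2 34 nt exon (97.4%) left and the Rbfox1 54 nt exon (94.5%) entered, and in the second the Ptbp1 34 nt exon (94.9%) entered. No paired analysis was possible because the series has 1 group. Shallow junctions limit the 43 nt exons.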

Other observations

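Junctions without the annotation flag carried from 4.44% (Rbfox3) to 17.4% (Mbnl1) of the junction reads within the span of each member apart from Nova1, where the share was higher. In Nova1, 8 such junctions had at least 10 reads in each column. Of these, 6 lay inside the intron before the last exon, within mm9 chr12:47808666-47809393, with 181 and 175 reads and no annotated end. The strongest single unannotated junction of any member was in Rbfox2 (mm9 chr15:77061868-77075919), with 385 and 395 reads. It joins the 51 nt exon to a site that Ensembl 65 does not list. In Ptbp2 the strongest had 209 and 152 reads, and in Rbfox1 173 and 153, each with 1 annotated end.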
